A study of Sus scrofa with 31 samples.

Results

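ST18, GUCY2D and GATA5 were 3 of the 31907 genes counted in pig microglia, alveolar macrophages and hippocampal tissue. They were chosen by their values in these data: among genes with a symbol and with every microglia sample above every alveolar macrophage sample, they had the largest fitted log2 fold changes of microglia over alveolar macrophages. That contrast is therefore given here as a description with no test, and the tests concern hippocampal tissue and the brain regions. The choice used the values of all microglia samples, which also enter these tests. It did not use the tissue values or any contrast between regions. The 31 RNA samples carry the tags of 15 pigs and fall into 5 groups: 8 samples each of cerebellar, frontal cortex and hippocampal microglia, 3 of alveolar macrophages and 4 of hippocampal tissue taken whole. Samples are named below by group and pig tag. All pigs were uncastrated male piglets in the fourth week of life, from Large White × Landrace sows and Danish Duroc semen, born into standard or less restrictive farrowing pens, and none received an experimental treatment named in the labels. Microglia were sorted as CD11b high cells with low or no CD45 after mechanical dissociation of the brain region. Alveolar macrophages were sorted from lung lavage as F4/80+ cells with low or no CD163, and were the only macrophages outside the brain in the comparison. RNA of sorted cells was extracted on magnetic beads and that of tissue by a column kit, so a difference between cells and tissue cannot be told apart from a difference between these extractions.

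ST18 encodes a zinc finger transcription factor of the MYT1 family, whose members are best known from developing neurons and oligodendrocyte precursors and from endocrine cells of the pancreas. GUCY2D, in human, encodes the membrane guanylate cyclase of photoreceptor outer segments, which makes cyclic GMP under the control of small calcium-sensing activator proteins and is mutated in inherited retinal dystrophies. GATA5 encodes a zinc finger factor of the GATA family that is known from heart, gut endoderm and endothelium. Microglia are the resident macrophages of the brain parenchyma and arise from yolk sac progenitors. Their defining transcription factors are those of the macrophage lineage, such as PU.1, together with brain-dependent factors such as SALL1.

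Microglia carried the markers of their label, and alveolar macrophages carried part of theirs. The 13 microglia markers with an identifier summed to 5977 to 11402 CPM (counts scaled to a library of 1e+06 by TMM) in the 24 microglia samples, 689 to 1471 CPM in alveolar macrophages and 314 to 415 CPM in tissue. The 7 alveolar macrophage markers summed to 593 to 1024 CPM in alveolar macrophages and 12.9 to 64.1 CPM in microglia. Most of that sum came from CD163 (mean of 402 CPM), which the sort took as low or absent, and from MRC1 (262 CPM), while MARCO and FABP4 had 0 counts in alveolar macrophages and MSR1 was at 8.45 CPM there and 7.58 CPM in microglia. Alveolar macrophage sorts also held 906 to 1497 CPM of T, NK and B cell markers, against 66.9 to 201 CPM in microglia, and 229 to 599 CPM of neutrophil and mast cell markers, against 1.49 to 14.3 CPM. Neuron markers summed to over 100 CPM in 4 microglia samples (cerebellar 12583 and 12902, frontal cortex 12599 and 12891), and each regional test was repeated without them. Total counts ranged from 18438494 to 43477403 per sample, and the alveolar macrophage libraries, at 39736805 to 43477403, were deeper than any of the microglia libraries.

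The genes lie on 3 different chromosomes of Sscrofa11.1. In RefSeq, ST18 (ENSSSCG00000006266) spans 294874 bases on the plus strand of chromosome 4, between 77707143 and 78002016, with 30 transcript models from 4 start sites. GUCY2D (ENSSSCG00000025345) spans 49997 bases on the plus strand of chromosome 12, between 53200570 and 53250566, with 3 models from 3 start sites. GATA5 (ENSSSCG00000007538) spans 9852 bases on the minus strand of chromosome 17, between 61824891 and 61834742, with 3 models that begin within 1 base of each other. The 250 bases before the start of the model with the longest coding sequence, the most upstream where several tied, are printed because GUCY2D and GATA5 varied together among microglia samples, as shown further on, and those of ST18 are printed for comparison. Each was read on the strand of its gene and overlaps no RefSeq exon, and capitals mark the letters of the motifs that were searched.

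ST18, chr4:77706893-77707142, plus strand: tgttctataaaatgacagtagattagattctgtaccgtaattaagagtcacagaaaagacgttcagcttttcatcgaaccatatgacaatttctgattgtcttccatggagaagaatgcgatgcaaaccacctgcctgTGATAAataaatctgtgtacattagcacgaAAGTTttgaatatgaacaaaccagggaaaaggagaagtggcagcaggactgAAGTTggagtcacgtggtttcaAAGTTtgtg
GUCY2D, chr12:53234281-53234530, plus strand: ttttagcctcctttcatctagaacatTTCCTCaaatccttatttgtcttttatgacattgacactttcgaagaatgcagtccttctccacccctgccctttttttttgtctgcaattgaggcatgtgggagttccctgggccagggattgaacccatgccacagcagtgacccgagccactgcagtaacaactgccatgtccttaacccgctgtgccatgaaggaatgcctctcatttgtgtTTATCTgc
GATA5, chr17:61834743-61834992, minus strand: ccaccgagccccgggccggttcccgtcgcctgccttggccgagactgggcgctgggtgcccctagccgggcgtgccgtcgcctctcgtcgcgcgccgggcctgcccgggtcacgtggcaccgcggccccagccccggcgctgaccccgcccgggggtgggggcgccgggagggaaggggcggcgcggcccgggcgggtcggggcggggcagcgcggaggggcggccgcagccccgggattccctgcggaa

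The 3 windows differed in base composition. G and C made up 83.2% of the GATA5 window, 46.8% of the GUCY2D window and 38.8% of the ST18 window, against a median of 58.4% over 19531 windows placed by the same rule before protein-coding genes (quartiles 48.8% and 67.6%). The GATA5 window held 39 CG pairs, the GUCY2D window 3 and the ST18 window 6, beside a median of 12. A GATA motif (AGATAA, its form AGATAG, the related TGATAA or its form TGATAG, on either strand) was present before ST18 as TGATAA at 112 to 107 bases before the start and before GUCY2D as the reverse of AGATAA at 8 to 3 bases, and was not found before GATA5. It occurred in 19.7% of all windows. The MYT1 family letters AAGTT occurred 3 times before ST18, at 82, 31 and 9 bases before the start, in neither of the other windows, and in 30.3% of all windows. The PU.1 letters GAGGAA occurred once, on the reverse strand 224 bases before the start of GUCY2D, and in 21.9% of all windows. These matches describe letters only. For ST18 the window precedes 1 of the 30 models, and 17 models start within 3 bases of position 77748694 instead. For GUCY2D it precedes 1 of the 3 models, which starts at 53234531, inside the span of the gene. The other GUCY2D models start at 53200570 and 53235876.

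None of the 3 genes had a single count in any of the 3 alveolar macrophage libraries. At the depth of these libraries 3 counts correspond to 0.0640 to 0.0826 CPM, and a count of 0 allows a level up to that floor, which covers counting error only. Against the highest of these floors the mean over the 24 microglia samples was at least 813-fold higher for ST18, at least 599.7-fold higher for GUCY2D and at least 231-fold higher for GATA5. The choice of the genes fixed this direction, and 12.2% of the 11633 genes tested were called over 3-fold higher in microglia, with 10.1% called over 3-fold higher in alveolar macrophages. Of the tested genes, 290 (2.49%) had 0 counts in all 3 alveolar macrophage libraries. Among those ST18 ranked first, GUCY2D second and GATA5 seventh by mean CPM in microglia. These high ranks follow from the choice, which took the largest fold changes, and are a description. Only 11 of the 290 had over 1 CPM in every microglia sample. Pigs 12821 and 12829 gave both alveolar macrophages and hippocampal microglia. In pig 12821 the hippocampal microglia had 1451 counts of ST18, 1872 of GUCY2D and 914 of GATA5, and in pig 12829 they had 2031, 1701 and 1152 counts, while the alveolar macrophages of the same animals had 0.

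**Figure D1:**
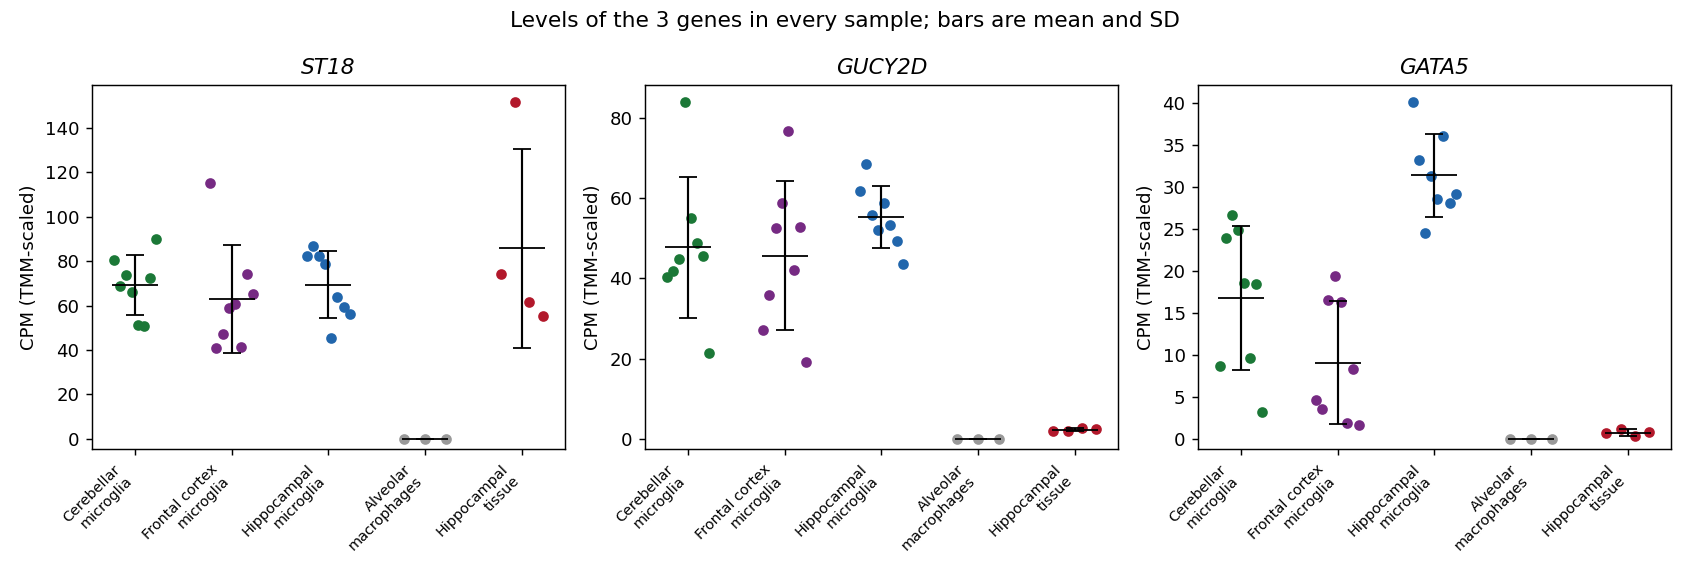
TMM-scaled CPM of ST18, GUCY2D and GATA5 in each of the 31 samples by group, with points for samples and bars for the mean and SD. All 3 genes are at 0 in alveolar macrophages, ST18 is as high in tissue as in microglia, GUCY2D and GATA5 are low in tissue, and GATA5 is highest in hippocampal microglia.

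The order of the group means differed between the genes. For ST18 it ran from alveolar macrophages at 0 through frontal cortex (63.0), cerebellar (69.2) and hippocampal microglia (69.5) to tissue (85.8 CPM), and no neighbors in this order above the alveolar macrophages differed beyond their spread. For GUCY2D the order was alveolar macrophages, tissue (2.22), frontal cortex (45.6), cerebellar (47.7) and hippocampal microglia (55.4 CPM), with the only gap beyond the spread above the alveolar macrophages lying between tissue and microglia. GATA5 had the same order with wider steps: tissue at 0.750, frontal cortex microglia at 9.07, cerebellar microglia at 16.8 and hippocampal microglia at 31.4 CPM. Per kilobase of RefSeq exon the order between genes changed. The microglia mean was then 9.06 CPM per kilobase for GUCY2D (5469 exon bases), 8.35 for GATA5 (2287 exon bases) and 2.93 for ST18 (22967 exon bases), although ST18 had the most counts. The union of all models was used as the length, which for ST18 includes models whose use in these cells was not tested.

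ST18 was expressed at similar levels in microglia of the 3 regions and in tissue. In cerebellar microglia it ranged from 50.7 to 90.1 CPM (median 70.6), in frontal cortex microglia from 40.9 to 115 CPM (median 59.9) and in hippocampal microglia from 45.4 to 87.0 CPM (median 71.3). The 3 ranges overlapped over most of their length. No regional difference was found, by an F test over the 3 regions (adjusted p = 0.872 by quasi-likelihood in edgeR, adjusted after Benjamini and Hochberg over 11633 genes, of which 2.03% passed 0.01) or in any pair, where the log2 fold changes lay between -0.14 and 0.14 with SE of 0.21 each. Within pigs, hippocampal microglia exceeded frontal cortex microglia in 3 of 3 pigs, by 0.49 to 0.53 on the log2 scale, and cerebellar microglia in 3 of 4.

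In hippocampal tissue ST18 was at 55.5, 61.4, 74.3 and 152 CPM in pigs 12872, 12847, 12821 and 12829. The first 3 lay inside the range of hippocampal microglia, and the tissue of pig 12829 lay above every other sample of the series. The log2 fold change of hippocampal microglia over tissue was -0.31 (SE 0.26, adjusted p = 0.272 in edgeR), whereas it was 0.13 (adjusted p = 0.646) once the tissue of pig 12829 was left out. For comparison, 11.7% of tested genes were called over 4-fold higher in hippocampal microglia and 22.1% over 4-fold higher in tissue. ST18 thus had a tissue mean of 123% of that in hippocampal microglia, whereas the 13 microglia markers had 2.03% to 39.0% (median 3.19%). Tissue exceeded the alveolar macrophage floor at least 1038-fold.

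Marker RNA of other cell types moved with ST18 across microglia samples, oligodendrocyte markers among them. The 10 oligodendrocyte markers summed to 13129 to 25896 CPM in tissue, and the highest sum and the highest ST18 were both those of pig 12829. In microglia the sum ranged from 170 to 2510 CPM (median 334), or 1.02% to 15.0% of the tissue mean, and the highest sum, that of frontal cortex 12599, was again in the sample with the most ST18 of all microglia. Over the 24 microglia samples, log2 ST18 and the log2 marker sum had Pearson's r of 0.54 (Spearman's rho 0.52, and r of 0.70 with region means removed). Without the 2 samples farthest from the median of ST18, r was 0.41. For the neuron marker sum r was 0.43 (rho 0.32, and 0.59 with region means removed). By region, r for oligodendrocyte markers was 0.52 in the cerebellum, 0.89 in the frontal cortex and 0.50 in the hippocampus. For neuron markers it was 0.65, 0.76 and 0.17 in the same order. For the microglia marker sum r was -0.51 (rho -0.54), and for that of astrocytes -0.04. ST18 per 1000 CPM of oligodendrocyte markers was 4.23 to 5.86 in tissue and 45.9 to 385 in microglia, so its ratio to these markers was higher in every microglia sample than in any tissue sample. Alveolar macrophages had 149 to 271 CPM on the same list, 74.3 to 194 CPM of it from MBP, with MOG at 0.533 to 3.09 CPM, beside no ST18. The defining marker MOG, a protein of the myelin surface, was not at 0 in microglia, where it was at 3.77 to 271 CPM. The part of oligodendrocyte or neuron RNA in the microglial ST18 level was not tested, and in whole tissue fewer cells of a type and less RNA per cell cannot be told apart.

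**Figure D2:**
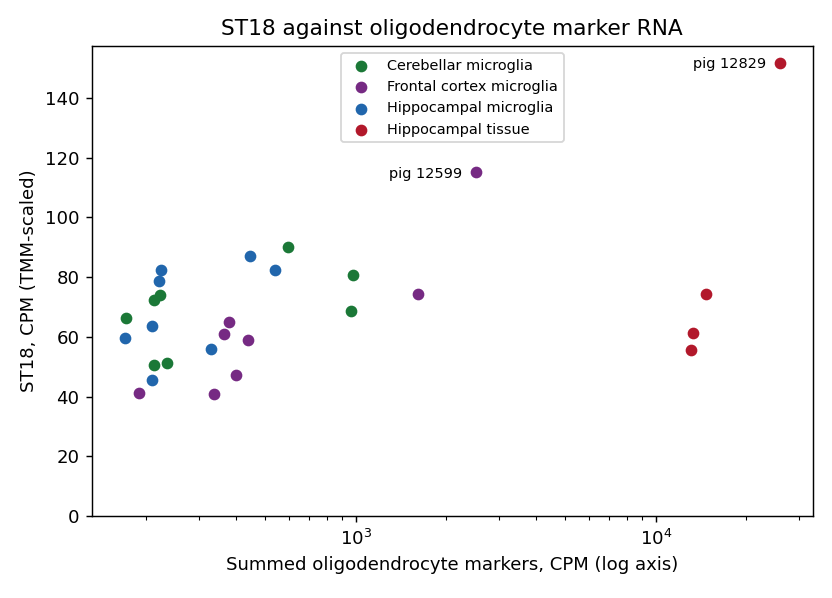
ST18 in TMM-scaled CPM (linear axis) against the summed CPM of 10 oligodendrocyte markers (log axis), 1 point per microglia or tissue sample. Tissue has 13129 to 25896 CPM of the markers, microglia 170 to 2510 CPM, and ST18 lies between 40.9 and 115 CPM in microglia; pigs 12599 (frontal cortex microglia) and 12829 (tissue) are named.

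GUCY2D was high in microglia of all regions and low in tissue. Cerebellar microglia had 21.4 to 84.0 CPM (median 45.2), those of the frontal cortex 19.1 to 76.8 CPM (median 47.3) and those of the hippocampus 43.5 to 68.5 CPM (median 54.5). In tissue it was at 1.92, 1.94, 2.70 and 2.33 CPM in pigs 12821, 12829, 12847 and 12872, from 63 to 88 counts. No tissue sample reached the lowest microglia sample. The log2 fold change of hippocampal microglia over tissue was 4.63 (SE 0.36, adjusted p = 6.97e-12 in edgeR), and hippocampal microglia were higher in 4 of 4 pigs that gave both, by 4.16 to 4.88 on the log2 scale. The 2 groups did not overlap, with all hippocampal microglia above all tissue samples, as for 31.1% of the genes tested. The tissue mean was 4.02% of that in hippocampal microglia, inside the range of the microglia markers, and at least 26.9-fold above the alveolar macrophage floor.

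Between regions GUCY2D was not found to differ (F test, adjusted p = 0.648 in edgeR). The pairwise log2 fold changes were 0.06 for cerebellar over frontal cortex, -0.21 for cerebellar over hippocampal and -0.28 for frontal cortex over hippocampal microglia, each with SE 0.22. The spread was wider outside the hippocampus, with a coefficient of variation of 36.8% in cerebellar and 40.5% in frontal cortex against 14.0% in hippocampal microglia. The lowest sample of each of those 2 regions came from pig 12902 and the highest from pig 12758. Over the 24 microglia samples log2 GUCY2D had r of -0.47 with the log2 neuron marker sum (rho -0.43, and -0.54 without the 2 samples farthest from the median of GUCY2D). By region r was -0.86 in the cerebellum, -0.17 in the frontal cortex and -0.13 in the hippocampus. The cerebellar sample of pig 12902 had the most neuron marker RNA of its region, 186 CPM, and its frontal cortex sample had 14.0 CPM. For oligodendrocyte markers r was -0.37 over the 24 samples, with -0.59 in the cerebellum, -0.16 in the frontal cortex and 0.25 in the hippocampus. For microglia markers it was -0.0021 over the 24 samples, and 0.38, -0.11 and -0.84 in the same order of regions. For astrocyte markers it was -0.27 over the 24 samples. The part of RNA of neurons or other cell types in these levels was not tested.

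GATA5 differed most between hippocampal microglia and tissue, and its microglial level varied more than those of the other 2 genes. It entered the tests only because all 8 hippocampal microglia samples exceeded 10 CPM, the filter on low values, which 5 of 8 cerebellar and 3 of 8 frontal cortex samples did. In hippocampal microglia it ranged from 24.5 to 40.2 CPM (median 30.3), and in tissue it was at 0.641, 1.22, 0.306 and 0.837 CPM in pigs 12821, 12829, 12847 and 12872, from 10 to 42 counts. The log2 fold change was 5.37 (SE 0.73, adjusted p = 3.12e-07 in edgeR), with hippocampal microglia higher in 4 of 4 pigs by 4.82 to 6.24. Hippocampal microglia are the group through which GATA5 passed the filter, and this test has to be read with that. The tissue mean was 2.39% of that in hippocampal microglia, near the low end of the microglia markers, and at least 9.08-fold above the alveolar macrophage floor.

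Among regions GATA5 was highest in hippocampal and lowest in frontal cortex microglia. The 8 frontal cortex samples had 1.60 to 19.5 CPM (median 6.49), and the 8 cerebellar samples 3.22 to 26.7 CPM (median 18.6). Every hippocampal sample thus lay above every frontal cortex sample, which held for 0.146% of the tested genes, while the cerebellar range overlapped both. GATA5 passed the filter through the group in which it was highest, and this ordering has to be read with that. The F test over regions gave an adjusted p of 0.0342 in edgeR and so missed the threshold of 0.01, and the log2 ratio of frontal cortex over hippocampal microglia was -1.79 ± 0.45 (SE; adjusted p = 0.0342), where 0.129% of genes were called higher in hippocampal microglia. Under limma-voom the value for this pair was -2.28 (adjusted p = 0.00406) and under DESeq2 -1.76 (adjusted p = 0.00269), both past the threshold, and with pig as a block it was -2.26 in limma (adjusted p = 0.00120) and -1.93 in edgeR (adjusted p = 0.124). The regional call for GATA5 therefore depended on the tool. Without the 4 samples with neuron markers over 100 CPM the log2 fold change was -1.66 (adjusted p = 0.0906 in edgeR).

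The other pairs were not called for GATA5. The log2 ratio of cerebellar over hippocampal microglia was -0.90 ± 0.44 (SE; adjusted p = 0.258, with 0.163% of genes called higher in hippocampal microglia), and cerebellar over frontal cortex microglia 0.89 (SE 0.44, adjusted p = 0.280, with 1.87% of genes called in either direction). Within pigs the order was the same throughout. Hippocampal microglia were higher than frontal cortex microglia in 3 of 3 pigs, with 40.2 and 19.5 CPM in pig 12750, 33.2 and 16.4 CPM in pig 12758, and 28.1 and 1.93 CPM in pig 12847. They were higher than cerebellar microglia in 4 of 4 pigs, by 0.42 to 1.54 on the log2 scale, and cerebellar exceeded frontal cortex microglia in 6 of 6 pigs, by 0.46 to 2.34. Differences between pigs were as large as those between regions, since pig 12902 had 3.22 CPM in the cerebellum and 1.60 CPM in the frontal cortex and pig 12750 had 26.7 and 19.5 CPM. GATA5 was lower where neuron markers were higher in the cerebellum and the hippocampus. With the log2 neuron marker sum it had r of -0.43 over the 24 samples (rho -0.56, and -0.75 without the 2 samples farthest from the median of GATA5), with -0.69 in the cerebellum, -0.78 in the hippocampus and 0.02 in the frontal cortex. The 2 lowest cerebellar samples, 12902 and 12583, had the 2 highest neuron marker sums of that region (186 and 132 CPM), and the 2 lowest frontal cortex samples, 12902 and 12847, had sums of 14.0 and 11.9 CPM. With oligodendrocyte markers GATA5 had r of -0.32 over the 24 samples, and -0.55 without the same 2 samples. With microglia and astrocyte markers it was 0.0046 and -0.00016 over the 24 samples. The part of RNA of neurons or other cell types in the GATA5 level was not tested.

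**Figure D3:**
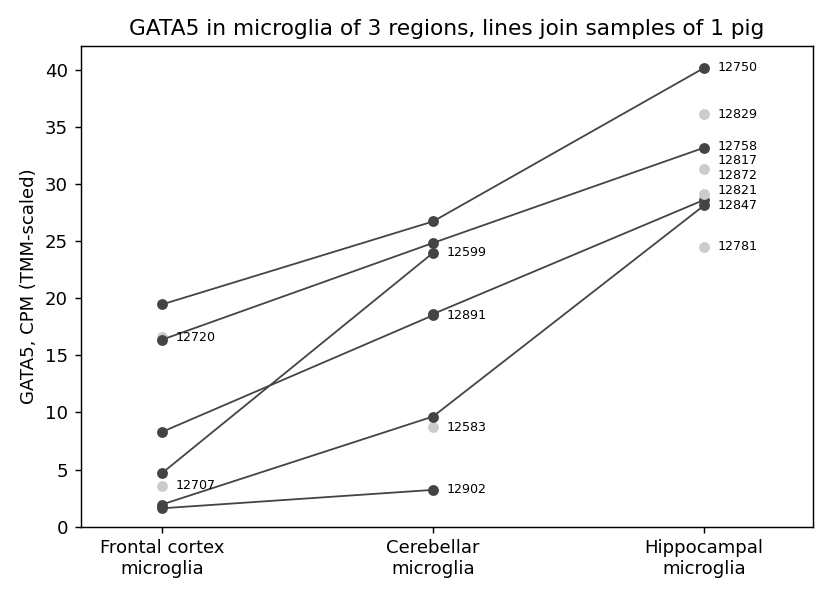
GATA5 in TMM-scaled CPM in frontal cortex, cerebellar and hippocampal microglia, 1 point per sample with the pig tag, and lines that join samples of 1 pig. The lines rise from frontal cortex to cerebellum in 6 of 6 pigs and from cerebellum to hippocampus in 4 of 4, and all hippocampal samples lie at 24.5 CPM or above.

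GUCY2D and GATA5 varied together among microglia samples, whereas ST18 had weak pooled correlations with both that differed by region. Over the 24 samples, log2 CPM of GUCY2D and GATA5 had Pearson's r of 0.74 (Spearman's rho 0.60), 0.78 with region means removed and 0.57 without the 2 samples farthest from the median of GUCY2D. Taken region by region (8 samples each), r was 0.77 for the cerebellum, 0.81 for the frontal cortex and 0.37 for the hippocampus. The samples share pigs, libraries and depth, and in the cerebellum and in the frontal cortex the sample of pig 12902 was the lowest for both genes. GATA5 ranked 46th of 11632 genes by its correlation with GUCY2D. ST18 had r of -0.19 with GUCY2D and 0.12 with GATA5, and ranked 7962nd and 4116th by these values. With GUCY2D its r was -0.60 in the cerebellum, -0.27 in the frontal cortex and 0.47 in the hippocampus, and with GATA5 -0.39, 0.07 and 0.27. Against total counts r was -0.48 for ST18, 0.31 for GUCY2D and 0.22 for GATA5. Within the cerebellum r with total counts was 0.82 for GUCY2D and 0.81 for GATA5, above the 0.77 between these genes there, while it was 0.21 and 0.23 in the frontal cortex and -0.41 and 0.03 in the hippocampus. The part of depth in their joint variation was not tested.

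**Figure D4:**
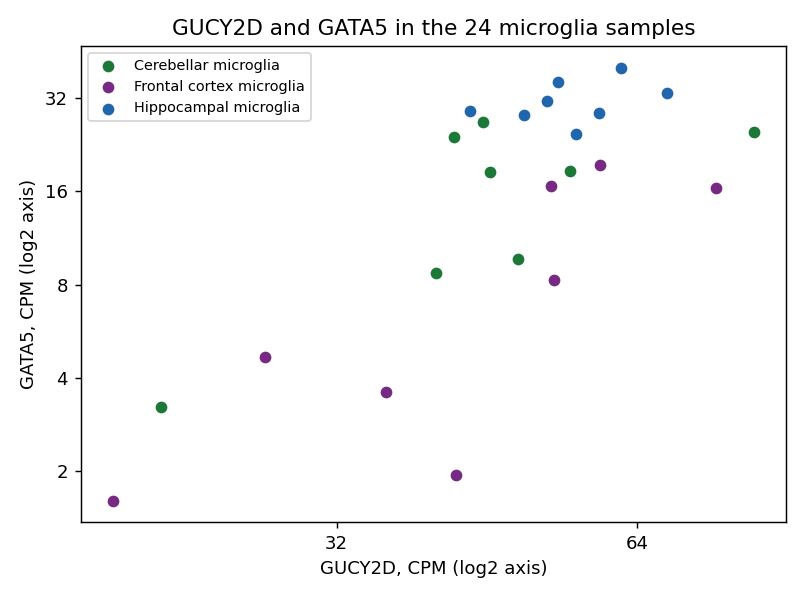
GATA5 against GUCY2D in TMM-scaled CPM (both log2 axes) in the 24 microglia samples, colored by region. The lowest points of both genes are frontal cortex and cerebellar samples, and the hippocampal samples gather at 43.5 to 68.5 CPM of GUCY2D and 24.5 to 40.2 CPM of GATA5.

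The genes most like each of the 3 in this respect also differed. The 5 genes with a symbol that followed ST18 most closely over the microglia samples were PLEKHA5 (r = 0.83), SNRPN (0.80), PPFIA2 (0.79), MAP2 (0.77) and TEAD1 (0.75), and all 5 had a higher mean in tissue than in microglia of any region. MAP2, a microtubule protein of neuronal dendrites, was at 2076 CPM in tissue and 62.4 to 137 CPM in the microglia groups, and PPFIA2, a synaptic scaffold protein, at 276 CPM and 20.3 to 29.7 CPM. For GUCY2D they were FGD2 (r = 0.83), SH3TC1 (0.83), CNTROB (0.82), EHBP1L1 (0.82) and CCDC137 (0.82). FGD2, an exchange factor for the small GTPase CDC42, was at 437 to 482 CPM in the microglia groups. It was at 12.1 CPM in tissue and 33.6 CPM in alveolar macrophages. SH3TC1 was at 157 to 186 CPM in the microglia groups, 5.73 CPM in tissue and 60.6 CPM in alveolar macrophages. EHBP1L1 was at 420 to 462, 31.1 and 303 CPM in the same order, and CCDC137 at 23.5 to 28.6, 17.6 and 28.5 CPM. Levels of CNTROB are given below. For GATA5 they were MAN2A2 (r = 0.91), ADAMTS10 (0.87), SIPA1L3 (0.84), PIK3R5 (0.84) and PLXNB2 (0.84). MAN2A2, a mannosidase of the Golgi, was at 608 to 769 CPM in the microglia groups. It was at 204 CPM in tissue and 87.5 CPM in alveolar macrophages. Like that of GATA5, its mean was highest in hippocampal and lowest in frontal cortex microglia. SIPA1L3 was at 110 to 142 CPM in the microglia groups and 127 CPM in tissue. PIK3R5 was at 126 to 180 CPM in the microglia groups and 148 CPM in alveolar macrophages. ADAMTS10 and PLXNB2 had lower means in tissue and alveolar macrophages than in any microglia group. The likeness is over 24 samples that share animals and is a description.

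CNTROB, which encodes a centriole protein, is also the upstream neighbor of GUCY2D on the same strand. It ends at 53201670, so that 1101 bases of the GUCY2D model starting at 53200570 lie inside it. The first exon of that model falls there. Mean CNTROB levels were 28.8 CPM in microglia, 17.4 CPM in tissue and 22.3 CPM in alveolar macrophages, and its microglial level per kilobase of exon was 7.17 CPM beside 9.06 for GUCY2D. Alveolar macrophages had CNTROB reads and no GUCY2D counts. How the counting divided reads between the overlapping models was not tested. The gene after GUCY2D, ALOX12B, was at 0.0985 CPM in microglia. On the minus strand inside the span of ST18 lies LOC106509064 (77775449 to 77781130), with 558 exon bases beside 22967 of ST18. The strand setting of the counting is not given in the sources used here. Whether exons of these 2 genes overlap, or reads of LOC106509064 entered the ST18 count, was not tested. The ST18 neighbors ALKAL1 (0.0140 CPM) and SNTG1 (2.26 CPM) were low in microglia. RB1CC1 (222 CPM) and PCMTD1 (88.4 CPM) were expressed in microglia and in alveolar macrophages (240 and 63.5 CPM). Around GATA5, RPS21 (31.6 CPM) and CABLES2 (17.6 CPM) were expressed in microglia, and in alveolar macrophages (74.0 and 19.8 CPM). RBBP8NL (0.182 CPM), SLCO4A1 (0.0944 CPM), NTSR1 (0.958 CPM) and COL9A3 (0.350 CPM) were lower in microglia. SLCO4A1, a thyroid hormone transporter, was at 17.6 CPM in alveolar macrophages.

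ST18 was the only gene of the MYT1 family that was high in hippocampal microglia. MYT1, a repressor of progenitor genes in the nervous system, was at 0.498 CPM in microglia of the hippocampus, beside 30.5 ± 5.45 CPM (SD, n = 4) in tissue, and MYT1L, a neuronal factor, at 0.978 and 141 CPM. Both were called higher in tissue (2 of 2 without ST18), as were 22.1% of all tested genes. Their median log2 fold change was -6.55, and that of all tested genes was -0.08. Cerebellar and frontal cortex microglia had 7.45 and 2.84 CPM of MYT1 and 7.03 and 12.98 CPM of MYT1L. MYT1L had 0 counts in alveolar macrophages, as ST18 did.

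Within the GATA family, the member with the highest mean was GATA5 in microglia and GATA3 in alveolar macrophages. GATA5 was the only one of the 6 GATA factors over 2 CPM in microglia, where GATA1, a factor of red cell, platelet and mast cell lineages, was at 1.23 CPM, and GATA2, GATA3, GATA4 and GATA6 at 0 to 0.218 CPM. In alveolar macrophages GATA3, known from T helper and innate lymphoid cells, was at 50.8 to 78.1 CPM, GATA2 at 4.13 to 32.2 CPM and GATA6, a factor of peritoneal macrophages, at 1.79 to 3.98 CPM. The T, NK and B cell and the neutrophil and mast cell marker sums of the same libraries are given above, with KIT at 24.1 to 94.2 CPM and MS4A2 at 6.39 to 34.8 CPM, and their part in the GATA3 and GATA2 levels was not tested. Beside GATA5, 3 genes of this list were tested. ZFPM1, a cofactor that binds GATA factors, was called higher in hippocampal microglia than in tissue (100 and 9.24 CPM, log2 fold change 3.43). ZFPM2 (1.10 and 54.9 CPM) and GATA3 (0 counts and 0.201 CPM) were called higher in tissue. Of all tested genes, 11.7% were called higher in hippocampal microglia and 22.1% in tissue. GATA3 passed the filter through alveolar macrophages alone. In tissue it was at 0.0916 to 0.290 CPM, and the floor of 3 counts there was 0.0869 to 0.0919 CPM. ZFPM1 did not vary by region (101, 104 and 100 CPM, F test adjusted p = 0.984 in edgeR).

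Of the other membrane guanylate cyclases, none approached GUCY2D in microglia. GUCY2C, the receptor for guanylin in the intestine, was at 1.33 CPM in microglia and 6.01 CPM in tissue. In alveolar macrophages it was at 48.8 to 110 CPM, and the part of other cell types in those sorts was not tested. NPR1 and NPR2, the receptors for natriuretic peptides, were at 0.0702 and 4.17 CPM in microglia and at 5.99 and 32.4 CPM in tissue. In alveolar macrophages NPR1 had 0 counts and NPR2 was at 4.57 to 13.2 CPM. Of the listed membrane cyclases with an identifier, GUCY2D thus had the highest mean in microglia and GUCY2C in alveolar macrophages. GUCY1A1, GUCY1A2 and GUCY1B1 encode the 3 subunits of the soluble, nitric oxide-sensitive cyclase. They were at 0.109, 0.571 and 0.267 CPM in hippocampal microglia and at 17.1, 60.6 and 41.7 CPM in tissue. All 3 were called higher in tissue, as were 22.1% of all tested genes. In the same order they were at 0.179, 2.01 and 0.407 CPM in cerebellar and 1.69, 5.89 and 1.90 CPM in frontal cortex microglia. GUCY1A2 had 0 counts in alveolar macrophages, as GUCY2D did. The activator proteins of the retinal cyclase, GUCA1A and GUCA1B, had at most 0.0352 CPM on average in any group, and the photoreceptor factor gene CRX had 0 counts in microglia. The natriuretic peptide genes NPPB and NPPC were at 0 and 0.00804 CPM in microglia. Of the nitric oxide synthases, NOS2 was at 9.59 CPM in microglia, 6.84 CPM in tissue and 0.812 CPM in alveolar macrophages. NOS1 and NOS3 were at 0.584 and 0.281 CPM in microglia.

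Genes that act on or degrade cyclic GMP were mostly low in microglia. The protein kinases PRKG1 and PRKG2 were at 1.15 and 0.564 CPM in microglia and 23.8 and 16.7 CPM in tissue, both called higher in tissue, and of the 5 cyclic nucleotide-gated channel genes with an identifier all were below 1 CPM in microglia. Of the 9 phosphodiesterases tested, 1 was called higher in hippocampal microglia and 5 in tissue, with a median log2 fold change of -3.06, beside 11.7% and 22.1% of all tested genes and a median of -0.08. The 1 in microglia is no more than the share over all genes. It was PDE3B, which is inhibited by cyclic GMP and degrades cyclic AMP, at 619 CPM in hippocampal microglia, 39.6 CPM in tissue and 194 CPM in alveolar macrophages. PDE3B was also the only one of the 9 called in the F test over regions (adjusted p = 0.00663 in edgeR). In that test 2.03% of all tested genes were called. PDE3B was at 402 CPM in frontal cortex and 499 CPM in cerebellar microglia, the same order as GATA5. PDE1B, a calcium-dependent enzyme that degrades both nucleotides, was at 60.2 to 80.2 CPM in the microglia groups and 27.0 CPM in tissue. PDE10A and PDE6D were at 12.9 and 8.12 CPM in microglia and at 28.4 and 23.0 CPM in tissue. In alveolar macrophages they were at 0.0791 and 8.87 CPM. PDE2A, PDE1A and PDE5A, which degrade cyclic GMP, were at 141, 72.3 and 19.9 CPM in tissue and at 3.10, 0.764 and 2.39 CPM in hippocampal microglia.

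**Figure D5:**
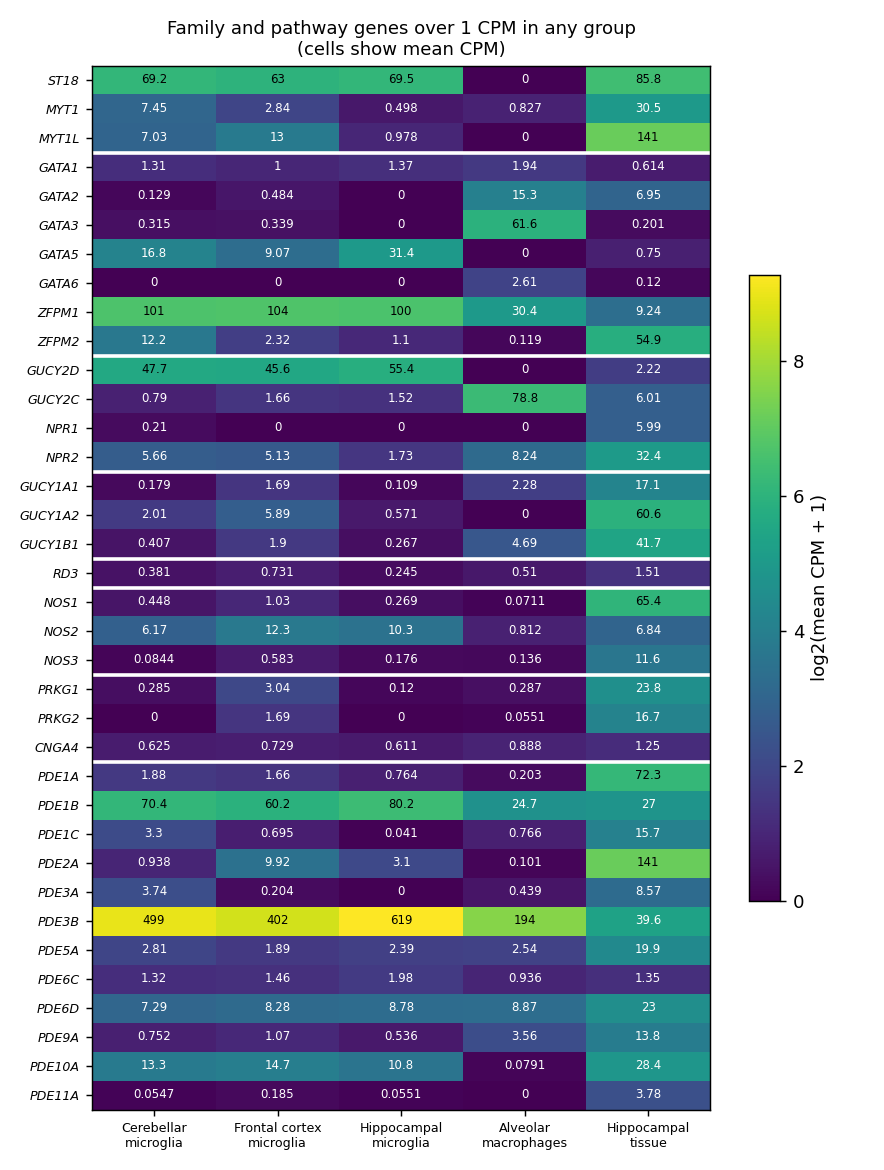
Mean TMM-scaled CPM, printed in each cell and colored as log2(CPM + 1), of the 36 genes of the MYT1, GATA, guanylate cyclase and cyclic GMP lists that exceeded 1 CPM in any group, with white lines between lists. ST18, GATA5 and GUCY2D are high in microglia and 0 in alveolar macrophages, while GATA3 and GUCY2C are high in alveolar macrophages and PDE3B is the highest of the genes shown in microglia.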

How the data were processed

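Total RNA of 31 samples was sequenced from a stranded library kit as short paired-end reads. Per the paper's methods, the authors trimmed reads with BBtools, aligned them with Hisat2 to Sscrofa11.1 (Ensembl release 99) and counted them with StringTie, and the deposited values are raw counts for 31907 Ensembl genes, 1 column per sample. StringTie derives counts from transcript coverage, and its read length and strand settings are not given in the sources used here.

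The 11633 genes in which some group had every sample over 10 CPM were normalized by TMM and fitted in 1 model of the 5 groups with edgeR 4.0.16 (quasi-likelihood, robust) in R 4.3.3. Benjamini-Hochberg adjustment of p-values was over these genes, with thresholds of 0.01 on the adjusted p and of 4 (tissue) or 3 (alveolar macrophages) on the fold change. Log2 CPM used a prior count of 2, and the floor was 3 counts per library. The alternatives tried were DESeq2 1.42.0, limma-voom with limma 3.58.1 (the study's own tool), RLE or no factors, filterByExpr or no filter, only the groups compared, pig as replicate block and each sample left out. Python 3.11.15 was used for the summaries. The steps were tested on simulated counts.

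The members, gene lists and tests were chosen with earlier results of these data known. The genes given by name come from the members, the listed family and pathway genes, the likeness ranking and the neighbors. The likeness ranking took the 5 genes with a symbol most correlated with each member over the microglia samples. The neighbors were 3 on each side with an identifier. Symbols came from a table that matched 15029 of the 31907 identifiers (47.1%), and genes without a match, such as TMEM119 and GUCY2F, were not analysed here. Positions and sequences are from RefSeq annotation release 106 of Sscrofa11.1. The windows before the gene starts came from 19531 protein-coding genes.

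Replicates are pigs, counted by the tags in the labels (a number that differs from the one in the paper's methods), and 9 pigs gave more than 1 sample. With group means removed, samples of the same pig correlated at 0.125 on average between microglia of different regions (13 pairs, -0.374 to 0.434) and, over 4 pairs of hippocampal tissue and microglia, at 0.0372, where samples of unlike pigs gave -0.00742 and -0.00583. The pairing is that of the animals. No 2 samples of a group were copies, with chi-square at least 19.1 times its degrees of freedom in each pair.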

Additional observations from a re-analysis of the deposited data

Results flagged for a closer look

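Among 12 combinations of gene and group with 4 to 8 samples, 1 held a sample far from the others of its group, about as many as chance gives at 1 in 20. ST18 was at 115 CPM in the frontal cortex microglia of pig 12599, and the gap to the next sample was 0.549 of the whole range of the group, above the critical value of 0.526. This sample also had the highest sums of oligodendrocyte markers (2510 CPM) and neuron markers (216 CPM) of its region. Without it the mean of frontal cortex microglia was 55.5 CPM instead of 63.0, and the log2 fold change of cerebellar over frontal cortex microglia was 0.32 (adjusted p = 0.383 in edgeR) instead of 0.14.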

How the results depend on the processing

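The calls of GUCY2D and GATA5 as higher in hippocampal microglia than in tissue held under all alternatives run, those leaving out 1 sample included, with log2 fold changes of 4.42 to 4.87 and 5.12 to 5.72. ST18 was called against tissue or between regions under none of them. For ST18 against tissue the log2 fold change was -0.52 to -0.10 over the alternatives and -0.47 to 0.13 with 1 sample left out, and it was above 0 only without the tissue of pig 12829. The choice of factors moved the median of all genes in this comparison from -0.08 under TMM to -0.30 under RLE and 0.14 with none. Frontal cortex over hippocampal GATA5 passed 0.01 under limma-voom (-2.28), DESeq2 (-1.76) and limma with the pig as replicate block (-2.26), as did its F test (adjusted p = 0.000715, 0.00591 and 0.000141), and in edgeR it did not pass as reported or with the block (-1.93, adjusted p = 0.124). The cause of this was not tested. With 1 sample left out, the edgeR value was -2.05 to -1.53 (adjusted p = 0.0197 to 0.0848). The block changed no other call of the 3 genes. Restricting the data to cerebellar and frontal cortex samples gave no value for GATA5, which then failed the filter.

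Small regional differences changed sign. Cerebellar over hippocampal ST18 was -0.00094 as reported, 0.0061 under limma-voom, 0.0165 under DESeq2 and RLE factors, 0.0193 with no factors, 0.0405 with only these groups and -0.070 to 0.106 with 1 sample left out. Frontal cortex over hippocampal ST18 was -0.321 to 0.024, and cerebellar over frontal cortex GUCY2D -0.104 to 0.159, with 1 sample left out, and the latter was -0.0176 with no factors. Levels and correlations stayed within the replicate spread or the interval of r.

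The number of genes past the thresholds moved more. It was 3930 against tissue, 7083 with filterByExpr and 7868 with no filter, where more genes were tested. It was 217 for cerebellar over frontal cortex microglia, 511 under DESeq2, 129 with no filter, 104 with only the groups compared, 381 with the block in limma and 141 to 241 with 1 sample left out. It was 70 for cerebellar over hippocampal microglia, 45 under limma-voom, 452 under DESeq2, 66 with the block in limma, 0 with it in edgeR (1327 at an unadjusted p under 0.05) and 35 to 113 with 1 sample left out. It was 37 for frontal cortex over hippocampal microglia, 391 under DESeq2, 17 with no filter, 4 with only the groups compared, 1 with the block in edgeR, 22 without the 4 samples with neuron markers (an alternative chosen after seeing the data) and 15 to 107 with 1 sample left out. By the F test over regions it was 236, 790 under DESeq2, 144 with only the groups compared, 85 with the block in edgeR and 154 to 335 with 1 sample left out.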
